A study of Mus musculus with 41 samples.

Results

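The comparison described here is that of the midbrain of Yy1 conditional knockout (cKO) mice with the midbrain of floxed mice, 7 libraries against 7. The members were taken from the title codes and tissue labels and make up 14 of the 41 libraries of the series. The series measured polyadenylated RNA in dissected cortex, midbrain and cerebellum, and its title asks about brain development, apoptosis, oxidative stress and inflammation after loss of Yy1 from astrocytes. All animals were adult C57BL/6J mice of 12 weeks, and each library came from the whole dissected tissue of 1 animal. The floxed group is labelled Yy1-floxed, and the cKO group carries the same floxed alleles together with a GFAP-cre transgene, which expresses Cre recombinase under the promoter of the gene of an astrocyte filament protein. Each group holds 4 animals labelled male (numbers 1 to 4) and 3 labelled female (numbers 5 to 7). No animal of the series is described as having Cre but not the floxed alleles. Effects of losing Yy1 and of Cre as such therefore cannot be told apart. In tissue RNA, fewer cells of a type and less RNA per cell cannot be told apart either.

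YY1 is a zinc finger protein that binds DNA at a short core motif and, depending on its partners, activates or represses genes. It also helps bring promoters and enhancers together. Astrocytes take up glutamate, GABA and potassium, hold the water channels of the vessel endfeet, store glycogen and secrete proteins that act on synapses. When the tissue is disturbed they raise the filament protein GFAP and can make complement and chemokines. Interferons act through the JAK-STAT proteins and the factor complex ISGF3, which binds the interferon-stimulated response element in promoters, and many cell types answer with a shared set of antiviral and antigen-presentation genes.

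Yy1 is at chr12:108792973-108820148 on the plus strand (gene positions here and below are from GENCODE vM21 on GRCm38). Its normalised read count in the 7 floxed libraries, numbers 1 to 7, was 1370.0, 1055.7, 1180.6, 1172.5, 1038.7, 983.2 and 1231.0. In the 7 cKO libraries it was 938.3, 1068.8, 982.2, 971.2, 891.9, 965.4 and 967.0. The ranges overlapped, and the fitted cKO level was 0.85-fold the floxed one, a log2 difference of -0.24 (SE 0.063, adjusted p = 0.018, limma). Without the floxed library numbered 6 the fall was 0.27 (adjusted p = 0.0085). The call is lost (adjusted p = 0.095) with sequencing depth as a covariate. The other cell types of a midbrain also express Yy1, and the share of Yy1 RNA that astrocytes hold was not measured.

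Before the results, 3 features of the libraries need stating. The floxed library numbered 6 (floxed 6 below) goes against its label. It was set against the genes called without it. There its level was nearer the cKO mean for 886 of the 1398 genes that fell (63.4%) and for 726 of the 1513 that rose (48.0%), whereas the other floxed libraries were nearer the cKO mean for 4.5% to 21.5% and 6.98% to 16.6%. It had the lowest Yy1 value of the floxed group. In cerebellum the library of the same genotype and number had 25729 normalised reads of Gfap against 4240 to 4786 in the other floxed libraries, and 585 of Yy1, within the cKO range of 499 to 683. Its midbrain Gfap value, 10368, was within the range of the other floxed libraries. Results are therefore given with floxed 6 and without it. Of 433 genes that were called and belong to a list or the named set, 419 stayed called without it and all 433 kept their sign. Of these, 377 then lay farther from 0 (median shift 0.05 on the log2 scale, range -0.09 to 0.47). Since floxed 6 was set apart for its nearness to the cKO mean, kept signs and larger differences follow in part from that choice. The estimated number of reads was lower in cKO, with 15.5 M to 32.2 M reads (median 22.8 M) against 22.4 M to 48.6 M in floxed libraries (median 29.3 M), a mean log2 difference of -0.40 (exact permutation test, two-sided p = 0.053). The sex labels and the sex-linked transcripts disagree. Of the 6 libraries labelled female, floxed 7, cKO 5 and cKO 6 carried Xist, and the other 3 carried Y-linked transcripts. A labelled sex is called so throughout.

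**Figure D1:**
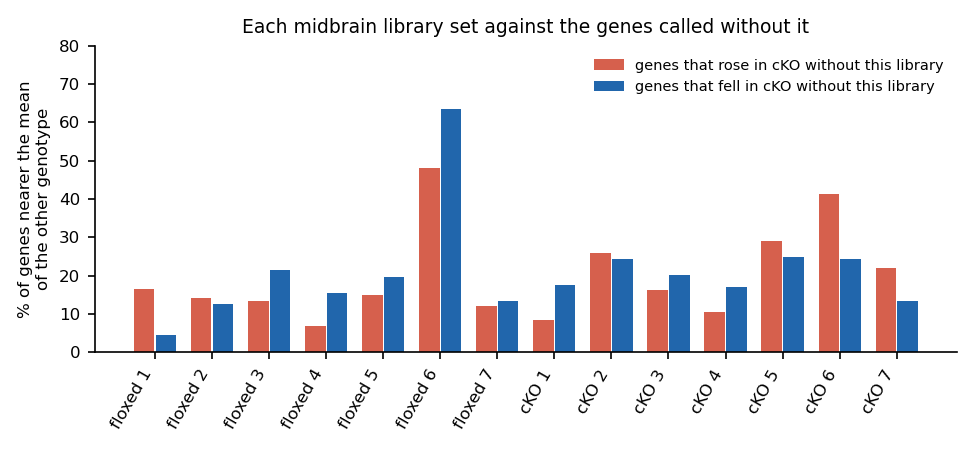
Share of called genes (percent) for which each midbrain library was nearer the mean of the other genotype, from calls made without that library. Floxed 6 stands at 63.4% of falls and 48.0% of rises, above every other floxed library, and cKO 6 has the highest share of rises in its group (41.3%).

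Markers of region were checked as well. Of the 26 midbrain neuron genes, all but Chat (medians of 161 in midbrain and 215 in cortex) and Slc5a7 (246 and 257) had a higher median in midbrain. The gap was wide for the serotonin transporter gene Slc6a4, with a median of 324 normalised reads in midbrain and 2.8 in cortex. It was also wide for Gata3 (128 and 0.88) and the dopamine transporter gene Slc6a3 (417 and 12.9), and small for Nr4a2 (960 and 830). Th had 620 in midbrain, 244 in cortex and 1536.5 in cerebellum. Forebrain markers were high too, since Tbr1 had a median of 2150 in midbrain, 3612 in cortex and 20.1 in cerebellum. Other genes of that list lay nearer cortex, with midbrain and cortex medians of 1151 and 1227 for Neurod6 and 1558 and 1779 for Lhx2. Prox1 lay above cortex (825 and 308). Of the 14 thalamus and hypothalamus genes, all but Nkx2-1 (medians of 68.5 in midbrain and 118 in cortex) had a higher median in midbrain. The gap was wide for Pmch (698 and 9.90) and Hcrt (302 and 3.47) and small for Rora (1620 and 1168) and Prkcd (994 and 639). The tissue labelled midbrain thus held forebrain markers, several of them at levels near those of cortex. Over the 13 cortex and hippocampus genes the summed level was 18170 to 22850 in floxed and 19240 to 22930 in cKO libraries, and 2 fell (1 with depth as a covariate). Over the 26 midbrain neuron genes the sum was 8972 to 12270 in floxed and 5780 to 9452 in cKO libraries, and 11 fell (9 without floxed 6; 0 with depth as a covariate). Over the 14 genes of thalamus and hypothalamus it was 9950 to 14990 and 8292 to 11210, and 7 fell (5 without floxed 6; 1 with depth as a covariate). None of these markers was at 0 in all 14 libraries. The part of the cut of the tissue in the results below was not tested.

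Of 15683 genes tested, 1330 were higher in cKO (8.48%) and 1194 were lower (7.61%), at an adjusted p under 0.05 in a limma fit of log2(value + 1) that included the labelled sex. Of these, 213 rose and 74 fell by at least 2-fold. For 309 genes all 7 cKO libraries lay above all 7 floxed libraries and for 288 they lay below, 3.81% of the genes tested. The median over all genes tested was -0.006. Without floxed 6 the counts were 1513 and 1398. With the estimated depth as a covariate they were 430 and 291, so every count of list members below is also given with depth as a covariate where that moves it by more than 1.5 times. Among called genes with a mean of 50 reads or more, the largest rises were those of Serpinf2, Cxcl10, Ddx60, Oas1a, Oasl2 and Gbp3, and the largest falls those of Thbs4, Celsr1, Bbox1, Dao, Ppp1r3g and Alas2.

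**Figure D2:**
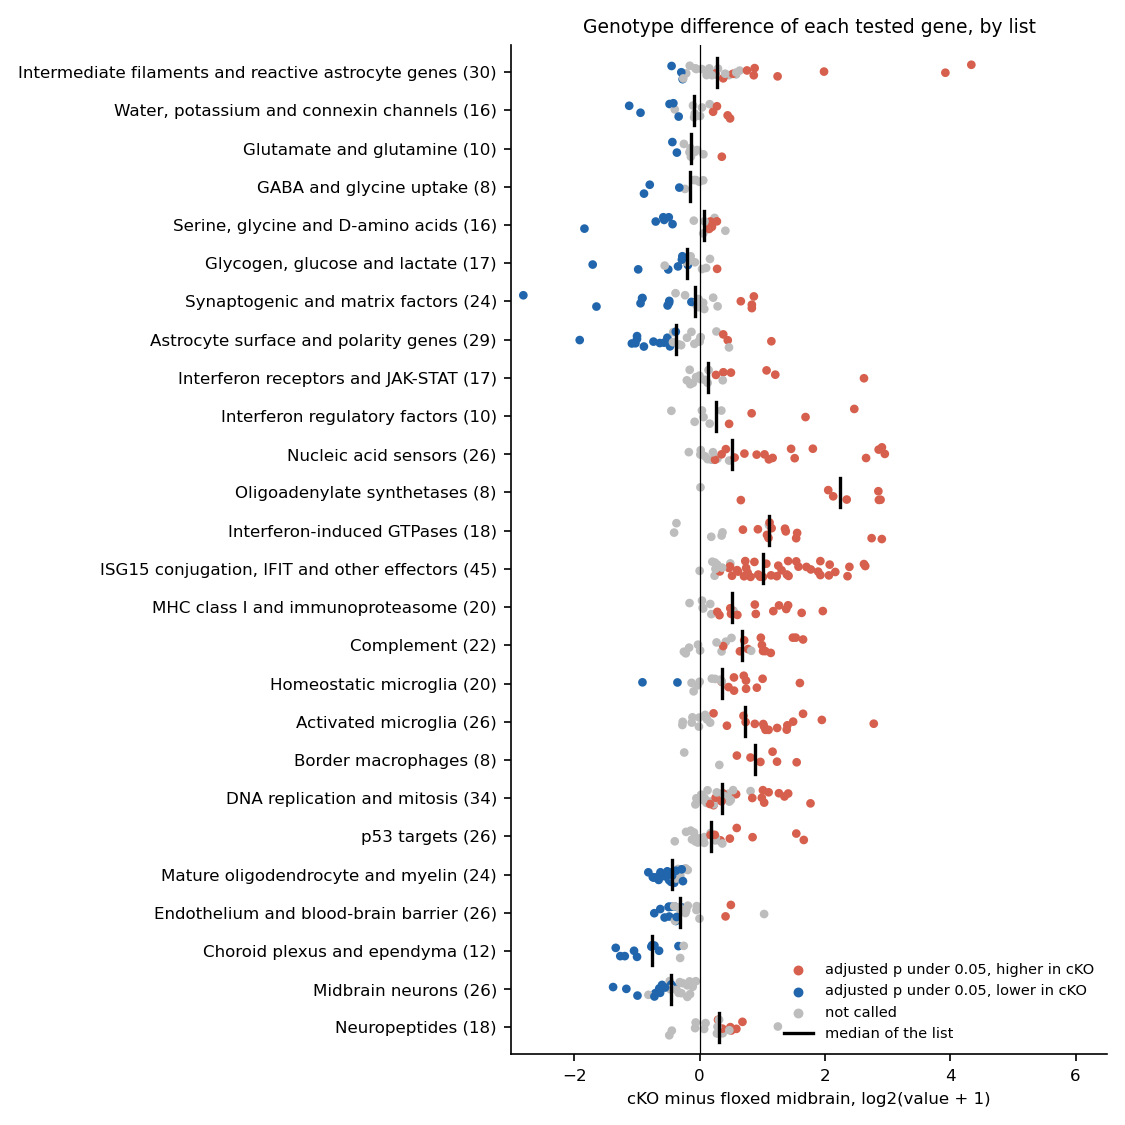
Difference between cKO and floxed midbrain for each tested gene of 26 lists, on the log2(value + 1) scale, with the number of genes tested in brackets. Interferon, complement and microglial lists lie to the right of 0, with the oligoadenylate synthetases at a median of 2.24, and the choroid plexus, myelin and midbrain neuron lists lie to the left.

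Among astrocyte genes the filament protein gene Gfap rose and the genes of gap junctions, water transport and several metabolic enzymes fell. Gfap (chr11:102887336-102900912, minus strand) had 9068 to 11059 normalised reads in floxed libraries (median 10041) and 11965 to 37120 in cKO libraries (median 26570). All cKO libraries lay above all floxed ones, a difference of 1.25 (SE 0.16, adjusted p = 0.00036; 2.37-fold). The widely used marker Aldh1l1, a folate enzyme of astrocytes, had 1816 to 2579 reads in floxed and 1941 to 2705 in cKO libraries, and Slc1a3, which encodes the glutamate transporter GLAST, 10679 to 14167 and 10757 to 13076. The ranges of both overlapped almost wholly and neither passed the test. S100b, a calcium-binding protein gene, fell by 0.51 (adjusted p = 0.012).

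Of the 30 tested filament and reactive genes, 10 rose and 3 fell, with a median difference of 0.28 (13 and 3 without floxed 6; 4 and 0 with depth as a covariate). Serpinf2, which encodes the plasmin inhibitor alpha-2-antiplasmin (chr11:75431732-75439591, minus strand), had 1.18 to 22.4 reads in floxed libraries (median 4.10) and 49.0 to 245 in cKO libraries (median 136). The groups did not overlap, the highest floxed value was that of floxed 6, and the difference was 4.34 (SE 0.43, adjusted p = 4.6e-05; 4.80 without floxed 6). Its neighbour on the chromosome, Serpinf1, which encodes the secreted factor PEDF, went from 329 to 668 reads in floxed to 707 to 1087 in cKO libraries and rose by 1.11 (adjusted p = 0.00016), without overlap. Vim, a second filament gene, rose by 0.88 (adjusted p = 0.016), the oncostatin M receptor gene Osmr by 0.87 (adjusted p = 0.0060) and the protease inhibitor gene Timp1 by 1.99 (adjusted p = 0.0037). Vim, Osmr and Timp1 overlapped between the groups. The acute-phase serpin gene Serpina3n had a difference of 0.58 that did not pass the test (adjusted p = 0.053), and passed it without floxed 6 (0.64, adjusted p = 0.042).

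Channel and junction genes moved in both directions, with 5 of 16 lower and 4 higher (6 and 4 without floxed 6; 1 and 1 with depth as a covariate). Gja1, which encodes connexin 43, the main gap junction protein of astrocytes (chr10:56377330-56402513, plus strand), had 2847 to 8135 reads in floxed (median 5399) and 1643 to 3103 in cKO libraries (median 2368). Only floxed 6, at 2847, lay among the cKO values, and the gene fell by 1.12 (SE 0.18, adjusted p = 0.0013), or fell by 1.26 without floxed 6. Gjb6, which encodes connexin 30, fell by 0.42 (adjusted p = 0.012). The water channel gene Aqp4 had 1692 to 5378 reads in floxed and 1145 to 2651 in cKO libraries. The lowest floxed value was again floxed 6, and the gene fell by 0.94 (adjusted p = 0.011), or fell by 1.10 without floxed 6. The genes of the potassium channel Kir4.1, Kcnj10, and of the adhesion protein Hepacam rose by 0.45 and 0.49 (adjusted p = 0.014 and 0.0051).

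Most genes of the glutamate list and of the GABA and glycine list did not pass the test. The transporter genes Slc1a2 and Slc6a11 fell, while Slc38a3, also a transporter gene, rose. Slc1a2, which encodes the glutamate transporter GLT-1, had 39358 to 59001 reads in floxed and 30065 to 38950 in cKO libraries. The groups did not overlap, and it fell by 0.43 (adjusted p = 0.0023). Glutamine synthetase, Glul, fell by 0.36 (adjusted p = 0.0097), while the glutamine transporter gene Slc38a3 rose by 0.36 without overlap (adjusted p = 0.0021). Of the 10 glutamate genes 2 fell and 1 rose (the same without floxed 6, and 1 and 1 with depth as a covariate). These shares, 20% and 10%, stand beside 7.61% and 8.48% of all genes tested. Slc6a11, which encodes the GABA transporter GAT-3, had 8342 to 15573 reads in floxed and 3501 to 7264 in cKO libraries, and fell by 0.79 (adjusted p = 0.0058). Maob, the monoamine oxidase by which astrocytes degrade amines, fell by 0.89 (adjusted p = 0.00012). Neither overlapped between the groups. Of 8 GABA and glycine uptake genes 3 fell and none rose (3 without floxed 6; 1 with depth as a covariate).

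The serine and D-amino acid genes included 6 falls and 4 rises of 16 (6 and 6 without floxed 6; 5 and 1 with depth as a covariate). Dao, the D-amino acid oxidase gene (chr5:114003703-114025682, plus strand), had 75.4 to 281 reads in floxed (median 137) and 25.4 to 55.9 in cKO libraries (median 40.4). It fell by 1.84 without overlap (SE 0.24, adjusted p = 0.00015). Phgdh, the entry enzyme of serine synthesis, fell by 0.43 without overlap (adjusted p = 0.00057), and Slc7a10, a transporter of small neutral amino acids that carries D-serine, fell by 0.70 (adjusted p = 0.0020). Srr, the serine racemase gene, rose by 0.20 (adjusted p = 0.011).

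Of 17 genes of glycogen, glucose and lactate, 8 fell and 1 rose (11 and 1 without floxed 6; 5 and 0 with depth as a covariate). Ppp1r3g, a subunit that brings protein phosphatase 1 to glycogen, had 65.2 to 311 reads in floxed and 39.9 to 92.9 in cKO libraries. Floxed 6 had the 65.2, and the gene fell by 1.70 (adjusted p = 0.0017), or fell by 1.99 without floxed 6. Pygm, a glycogen phosphorylase gene, fell by 0.98 without overlap (adjusted p = 0.0013). Among 20 carnitine and fatty acid genes 5 fell and 3 rose (7 and 4 without floxed 6; 1 and 0 with depth as a covariate). Bbox1, the last enzyme of carnitine synthesis, fell by 1.88 without overlap (adjusted p = 0.00036), and Fabp7, a lipid-binding protein gene of radial glia and astrocytes, rose by 0.73 (adjusted p = 0.0048). Lcat, which esterifies cholesterol on lipoproteins, had 632 to 900 reads in floxed and 1121 to 1560 in cKO libraries. It rose by 0.82 without overlap (adjusted p = 4.6e-05). Suclg2, a mitochondrial succinyl-CoA ligase subunit gene that belongs to no list, fell by 1.37 without overlap (adjusted p = 0.00010).

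Genes of secreted synaptic and matrix factors changed in both directions, 9 of 24 lower and 4 higher (the same counts without floxed 6; 6 and 4 with depth as a covariate). Thbs4, which encodes a thrombospondin (chr13:92751590-92794818, minus strand), had 26.0 to 345 reads in floxed libraries (median 180) and 15.3 to 26.4 in cKO libraries (median 18.9). The next lowest floxed library lay far above the 26.0 of floxed 6, the only floxed value inside the cKO range. The gene fell by 2.81 (SE 0.44, adjusted p = 0.00081), or fell by 3.23 without floxed 6. Papss2, which makes the sulfate donor for matrix sugars, fell by 1.64, the matrix protein gene Sparc by 0.91, the phagocytic receptor gene Megf10 by 0.94 and the glypican gene Gpc5 by 0.92, all 4 without overlap (adjusted p = 0.00042, 7.0e-05, 0.00086 and 0.0017). In the other direction, the neurocan gene Ncan had 4835 to 9051 reads in floxed and 10293 to 11691 in cKO libraries. It rose by 0.87 without overlap (adjusted p = 8.1e-05), with floxed 6 the highest floxed library. Hapln1, a link protein gene of perineuronal nets, and Chrdl1, a BMP antagonist gene of astrocytes, each rose by 0.83 without overlap (adjusted p = 0.00016 and 0.00042).

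Among 29 surface receptor and polarity genes 13 fell and 3 rose (14 and 3 without floxed 6, and 4 and 3 with depth as a covariate). This is the longest astrocyte list, and its share of falls (44.8%) was below that of glycogen, glucose and lactate (47.1%). Celsr1, a cadherin of planar cell polarity (chr15:85898929-86033777, minus strand), had 70.4 to 359 reads in floxed (median 243) and 38.5 to 77.9 in cKO libraries (median 59.2). The 70.4 was that of floxed 6, and the gene fell by 1.91 (adjusted p = 0.00037), or fell by 2.18 without floxed 6. The endothelin receptor gene Ednrb fell by 1.08 (adjusted p = 0.00050) and the angiotensinogen gene Agt by 0.89 (adjusted p = 0.0011), and the Wnt receptor gene Fzd10 rose by 1.15 (adjusted p = 0.00024), all without overlap. Beyond this list, the NMDA receptor subunit gene Grin2c fell by 1.41 (adjusted p = 9.9e-05), the NAD-consuming ectoenzyme gene Cd38 by 1.33 (adjusted p = 0.00018) and the glucocorticoid-activating enzyme gene Hsd11b1 by 1.06 (adjusted p = 1.9e-05), again without overlap. Of 24 astrocyte transcription factors 6 fell and 2 rose (9 and 2 without floxed 6; 0 and 1 with depth as a covariate). Sox9, a factor that most adult astrocytes express, fell by 0.31 (adjusted p = 0.0064).

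**Figure D3:**
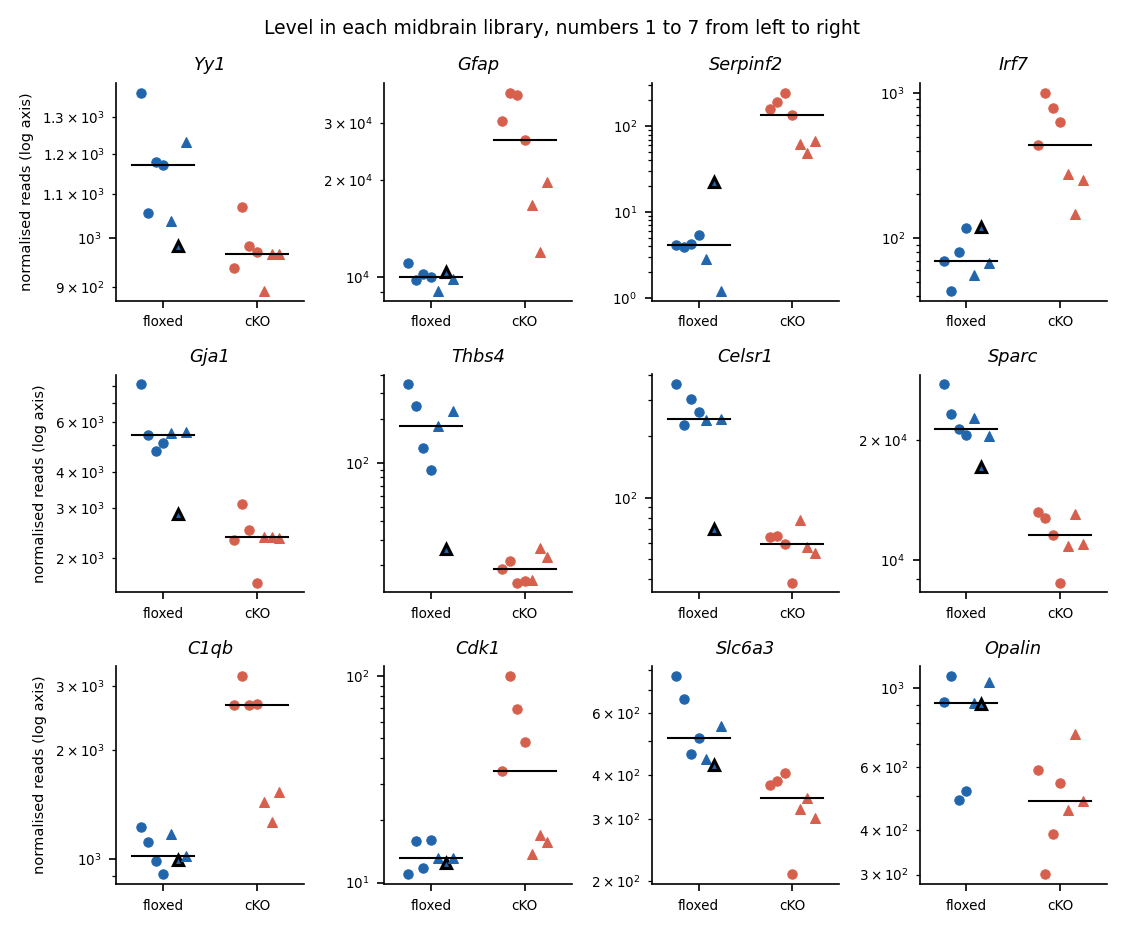
Normalised reads of 12 genes in each midbrain library (log axis). Circles are animals labelled male and triangles animals labelled female, floxed 6 has a black outline, and bars are medians. Floxed 6 lies with the cKO libraries for Gja1, Thbs4 and Celsr1 and with the floxed libraries for Gfap and C1qb, and the labelled-male cKO libraries are the highest for Gfap, Irf7, C1qb and Cdk1.

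Most genes of the sensor and effector lists of the interferon response rose. The interferon ligands themselves were hardly detected: 8 of 14 were at 0 in all libraries, Ifnb1 among them, their summed level was 0 to 1.96 reads in floxed and 0.94 to 2.83 in cKO libraries, and none could be tested. Of 17 receptor and JAK-STAT genes 6 rose and none fell (6 without floxed 6; 3 with depth as a covariate). Usp18, the negative regulator of the type I receptor (chr6:121245906-121270917, plus strand), had 24.9 to 50.9 reads in floxed (median 31.5) and 100 to 326 in cKO libraries (median 249). It rose by 2.62 without overlap (SE 0.21, adjusted p = 5.2e-06). Irf9, which encodes a subunit of ISGF3, rose by 1.07 without overlap (adjusted p = 0.00013). Irf7, the factor that amplifies type I interferon, had 43.3 to 119 reads in floxed and 146 to 999 in cKO libraries. It rose by 2.47 (adjusted p = 0.00046), and 4 of 10 interferon regulatory factor genes rose in all, with and without floxed 6.

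Counts of effector classes stood well above the 8.48% background. Of 26 nucleic acid sensors 16 rose, of 8 oligoadenylate synthetases 7, of 18 interferon-induced GTPases 12, and of 45 effectors of the ISG15, IFIT and similar families 37, and no member of these lists fell. Without floxed 6 the counts were 16, 7, 13 and 38, and with depth as a covariate 13, 6, 12 and 29. Their median differences were 0.52, 2.24, 1.10 and 1.01. Oas1a, which makes the second messenger that activates RNase L, had 15.4 to 39.3 reads in floxed (median 23.1) and 56.7 to 397 in cKO libraries (median 188). The groups did not overlap, and it rose by 2.86 (adjusted p = 5.8e-05). The guanylate-binding protein gene Gbp3 went from 90.2 to 290 in floxed to 459 to 1508 in cKO libraries and rose by 2.75 (adjusted p = 7.0e-05), without overlap and with floxed 6 the highest floxed library. The helicase gene Ddx60 rose by 2.96 and the virus-tethering protein gene Bst2 by 2.39 (adjusted p = 0.00015 and 8.5e-05), both without overlap. Isg15, a ubiquitin-like modifier, had 37.6 to 77.0 reads in floxed and 75.9 to 615 in cKO libraries. Its lowest cKO value lay just under the highest floxed value, and it rose by 2.17 (adjusted p = 0.00057). Ifit1, which binds foreign RNA caps, rose by 1.93 (adjusted p = 0.00040), with overlap.

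The promoters of the interferon genes are shown because these genes rose together. RefSeq windows on GRCm38.p6, from 250 bases before to 50 bases after a start site, were searched on both strands for the core of the interferon-stimulated response element, GAAANNGAA. Overlapping matches were allowed. The lines below give 100 bases each, 5′ to 3′ on the gene's strand, with matches in capitals on either strand. Cxcl10 is from chr5:92349040-92349139 (minus), Isg15 from chr4:156200830-156200929 (minus), Ifit1 from chr19:34640760-34640859 (plus), Oas1a from chr5:120907526-120907625 (minus) and Gbp3 from chr3:142559944-142560043 (plus). The 5 genes were chosen after their values were seen.
Cxcl10: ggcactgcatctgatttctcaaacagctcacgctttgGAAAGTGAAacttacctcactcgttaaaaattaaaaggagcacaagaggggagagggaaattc
Isg15: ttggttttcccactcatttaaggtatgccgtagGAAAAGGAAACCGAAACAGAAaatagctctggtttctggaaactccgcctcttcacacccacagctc
Ifit1: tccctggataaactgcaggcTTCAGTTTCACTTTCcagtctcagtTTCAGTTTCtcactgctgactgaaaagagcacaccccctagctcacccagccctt
Oas1a: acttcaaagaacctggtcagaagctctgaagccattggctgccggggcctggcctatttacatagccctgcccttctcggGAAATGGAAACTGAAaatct
Gbp3: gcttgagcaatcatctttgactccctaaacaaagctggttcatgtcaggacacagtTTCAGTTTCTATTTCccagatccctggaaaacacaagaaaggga
Isg15 and Ifit1 held 3 matches in their windows, Oas1a and this Gbp3 window 2, and Cxcl10 1. The windows of Serpinf2 and Irf7 held none, and a second window of Gbp3 held none.

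Of the 12226 tested genes with at least 1 window, 7.08% of windows held the core, and of all 32851 windows 8.56% did. Among windows of genes that rose it was 10.2%, among those that rose at least 2-fold 24.6% (47 of 191), among those that fell 7.25% and among genes not called 6.75%. It was present in 10 of 12 windows of the GTPases, 3 of 5 of the oligoadenylate synthetases, 22 of 50 of the effectors and 10 of 24 of the sensors. The gamma-activated site, TTCNNNGAA, was in 6.69% of windows of tested genes, 7.47% of those that rose and 7.09% of those that fell. It was in 6 of 12 windows of the GTPases, 1 of 5 of the oligoadenylate synthetases, 6 of 50 of the effectors and 4 of 24 of the sensors. A core of the YY1 motif, AANATGGCG, was in 4.12% of windows of tested genes, 1.87% of those that rose, 4.24% of those that fell and 4.35% of those not called. These shares describe letters in the windows and not binding.

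Among antigen presentation and chemokine genes none fell, and the medians were 0.52 for class I, 0.22 for class II and 0.23 for chemokines. Of 20 MHC class I and immunoproteasome genes 13 rose and none fell (14 without floxed 6; 10 with depth as a covariate). H2-K1, a classical class I heavy chain, had 873 to 1435 reads in floxed and 1388 to 3367 in cKO libraries and rose by 1.27 (adjusted p = 0.00020). Its highest floxed value was floxed 6 and lay just above the lowest cKO value. The light chain gene B2m rose by 0.88 and the immunoproteasome subunit gene Psmb8 by 1.63, without overlap (adjusted p = 0.00014 and 0.00013). Of 9 class II genes 4 rose (3 without floxed 6; 1 with depth as a covariate), and Cd74, the invariant chain, had 129 to 366 reads in floxed and 122 to 334 in cKO libraries, which did not pass the test. Of 12 chemokine genes 4 rose, with and without floxed 6. Cxcl10, which draws CXCR3-bearing cells, had 5.29 to 34.0 reads in floxed (median 8.53) and 50.9 to 374 in cKO libraries (median 207). It rose by 3.92 without overlap (SE 0.44, adjusted p = 0.00010). Ccl12 was at 0 to 9.18 reads in floxed and 10.4 to 76.7 in cKO libraries and rose by 2.83 on this scale (adjusted p = 0.00013). It was tested only because all cKO libraries reached 10 reads. Its direction and its lack of overlap were thus set by the filter, and the 4 rises include it. Of 7 infiltrating leukocyte genes tested of 28 listed, Cd4 alone rose (1.08, adjusted p = 0.014), and this call is lost with depth as a covariate.

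Complement and microglial genes rose as well. Of 22 complement genes 12 rose and none fell, with a median of 0.68 (12 without floxed 6; 8 with depth as a covariate). C1qb, a chain of the initiator C1q that microglia make (chr4:136880129-136886187, minus strand), had 910 to 1224 reads in floxed (median 1023) and 1266 to 3205 in cKO libraries (median 2658). It rose by 0.98 without overlap (SE 0.15, adjusted p = 0.00068). C4b rose by 1.14 and C3 by 0.77, with overlap (adjusted p = 8.5e-05 and 0.0077).

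Of 26 activated microglia genes 16 rose and none fell, with a median of 0.72 (16 without floxed 6; 14 with depth as a covariate). Their summed level was 153800 to 207200 reads in floxed and 161900 to 206500 in cKO libraries. That sum was carried by abundant genes such as Apoe, at 62995 to 78004 and 64946 to 79154 reads. Cst7, a cathepsin inhibitor of activated microglia, had 1.18 to 6.68 reads in floxed (median 2.49) and 12.5 to 61.2 in cKO libraries (median 29.6). It rose by 2.78 (adjusted p = 8.0e-05). As it was tested only because all cKO libraries reached 10 reads, its direction and lack of overlap were set by the filter. The lysosomal protein gene Cd68 rose by 1.10 without overlap (adjusted p = 0.00013) and the lysozyme gene Lyz2 by 1.39 with overlap (adjusted p = 4.6e-05). Of 20 homeostatic microglia genes 10 rose and 2 fell (11 and 2 without floxed 6; 8 and 1 with depth as a covariate), and the summed level was 44230 to 53800 in floxed and 38560 to 47630 in cKO libraries. The falls were Sparc, above, and the ADP receptor gene P2ry12, which had 397 to 647 reads in floxed and 322 to 399 in cKO libraries and fell by 0.35 (adjusted p = 0.016). Fcrls, an Fc receptor-like gene of resident microglia, rose by 1.01 without overlap (adjusted p = 3.6e-05), Trem2, a lipid receptor gene, by 0.74 (adjusted p = 0.0023), and the resident marker Tmem119 did not pass the test, at 388 to 687 reads in floxed and 450 to 755 in cKO libraries.

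The lowest p of all genes belonged to Stab1, a scavenger receptor gene of perivascular and other border macrophages (chr14:31139013-31168641, minus strand). It had 277 to 408 reads in floxed (median 362) and 509 to 914 in cKO libraries (median 684). It rose by 0.97 without overlap (SE 0.070, adjusted p = 2.4e-06). The mannose receptor gene Mrc1 rose by 1.24 without overlap (adjusted p = 0.00057), and 6 of 8 tested border macrophage genes rose (5 without floxed 6; 4 with depth as a covariate). The 12 listed genes summed to 459 to 632 reads in floxed and 790 to 1487 in cKO libraries, ranges that did not meet. Of 20 Fc and Toll-like receptor genes 12 rose and none fell (13 without floxed 6), and of 10 oxidase genes 6 rose (4 with depth as a covariate), among them Cybb, the catalytic subunit of the phagocyte NADPH oxidase, by 1.95 (adjusted p = 0.012).

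Of the processes in the series title, oxidative stress and apoptosis had lists with small median differences, apart from the oxidase genes above (median 0.60). Over all genes tested 8.48% rose and 7.61% fell. The shares were 18.2% and 15.2% in the antioxidant list and 26.7% and 6.67% in the BCL2 list. In the caspase, death receptor and necroptosis list they were 14.3% and 4.76%. Of 33 glutathione and antioxidant genes 6 rose and 5 fell, with a median of 0.03 (the same counts without floxed 6; 3 and 3 with depth as a covariate). The peroxiredoxin gene Prdx6, prominent in astrocytes, had 4517 to 5577 reads in floxed and 6006 to 8754 in cKO libraries, and rose by 0.59 without overlap (adjusted p = 0.00013). Gstm1, a glutathione transferase gene, had 2710 to 5152 reads in floxed and 2283 to 2655 in cKO libraries, and fell by 0.86 (adjusted p = 0.00012). Floxed 6 had the 2710, next to the cKO libraries. The heme oxygenase gene Hmox1 rose by 0.50 (adjusted p = 0.032) and the metallothionein gene Mt2 by 0.97 (adjusted p = 0.0020). Of 15 BCL2 family genes 4 rose and 1 fell, and of 21 caspase, death receptor and necroptosis genes 3 rose and 1 fell (6 and 2, and 4 and 0, without floxed 6; 1 and 0, and 2 and 0, with depth as a covariate).

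Of 26 p53 target genes 10 rose and none fell (12 and 1 without floxed 6; 3 and 0 with depth as a covariate). Eda2r, a death-domain receptor gene, had 2.70 to 42.3 reads in floxed and 18.1 to 55.8 in cKO libraries and rose by 1.54 (adjusted p = 0.029; 1.88 without floxed 6, which had the 42.3). The cell cycle inhibitor gene Cdkn1a rose by 0.59 (adjusted p = 0.0095), and Ckap2, a spindle protein gene, by 1.66 without overlap (adjusted p = 0.00053). Of 34 replication and mitosis genes 15 rose and none fell (19 without floxed 6; 3 with depth as a covariate). The mitotic kinase gene Cdk1 had 11.0 to 16.1 reads in floxed (median 13.1) and 13.7 to 101 in cKO libraries (median 34.6), and rose by 1.27 (adjusted p = 0.0098). Mki67, a marker of cycling cells, rose by 1.01 (adjusted p = 0.014). For Cdk1 the 3 cKO libraries labelled female lay at the floxed level and the 4 labelled male above it.

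Falls outnumbered rises among oligodendrocyte, vessel and ventricle lining genes. Of 24 mature oligodendrocyte and myelin genes 16 fell and none rose, with a median of -0.43 (16 without floxed 6). With depth as a covariate 2 were called lower, at a median of -0.40, and in libraries labelled male alone 5, also at -0.40. Opalin, a membrane glycoprotein gene of mature oligodendrocytes, had 487 to 1084 reads in floxed (median 909) and 301 to 747 in cKO libraries (median 482), and fell by 0.73 (adjusted p = 0.026). Its ranges overlapped widely. Myrf, the factor that drives myelin genes, fell by 0.55 without overlap (adjusted p = 0.0057). The myelin genes Mbp and Mog did not pass the test. Of 20 precursor and newly formed oligodendrocyte genes 2 fell and none rose (3 fell without floxed 6 and 0 with depth as a covariate). The 10% that fell lay near the 7.61% of all genes tested. The precursor marker Pdgfra had 1255 to 2017 reads in floxed and 1105 to 1687 in cKO libraries.

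Of 26 endothelial and barrier genes 11 fell and 2 rose (the same without floxed 6; 10 and 0 with depth as a covariate). Flt1, a VEGF receptor gene, had 1093 to 2070 reads in floxed and 730 to 1404 in cKO libraries and fell by 0.72 (adjusted p = 0.0012), and the tight junction gene Cldn5 fell by 0.45 (adjusted p = 0.011). In both genes cKO 4 was the highest cKO library and overlapped the floxed range. Of 16 pericyte and smooth muscle genes 5 fell (5 without floxed 6), and Pdgfrb, the PDGF receptor gene of pericytes, fell by 0.58 without overlap (adjusted p = 0.00017). Of 12 choroid plexus and ependyma genes 10 fell, with a median of -0.76 (10 without floxed 6; 3 with depth as a covariate, with the median still -0.76). Of 15 fibroblast and meninges genes 4 rose and none fell (5 without floxed 6; 1 with depth as a covariate). The 12 genes summed to 16660 to 37270 reads in floxed and 9116 to 22090 in cKO libraries, and most of that sum was the transthyretin gene Ttr. Ttr had 14402 to 33115 reads in floxed and 7827 to 20070 in cKO libraries and fell by 0.76 (adjusted p = 0.037). The choroid plexus bicarbonate transporter gene Slc4a5 fell by 1.34 (adjusted p = 0.0029) and the cilium gene Hydin fell by 1.45 (adjusted p = 0.0026). Of 5 tested erythrocyte genes 3 fell, among them Alas2, the heme synthesis enzyme of red cells, by 1.65 (adjusted p = 0.0072), and none was called with depth as a covariate. The amount of ventricle lining and blood in each piece of tissue was not measured, and its part in these falls was not tested.

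Some genes of midbrain serotonin and dopamine neurons fell. Of 13 serotonin, acetylcholine and noradrenaline neuron genes 4 fell and none rose (3 without floxed 6; 1 with depth as a covariate). Slc6a4, the serotonin transporter gene (chr11:76998603-77032340, plus strand), had 303 to 628 reads in floxed (median 427) and 40.0 to 398 in cKO libraries (median 204). It fell by 1.38 (SE 0.40, adjusted p = 0.036), and the call is lost without floxed 6 (a difference of -1.34, adjusted p = 0.052). The serotonin synthesis gene Tph2 fell by 1.17 (adjusted p = 0.016). Slc6a3, the dopamine transporter gene, had 428 to 768 reads in floxed and 209 to 405 in cKO libraries, and fell by 0.70 without overlap (adjusted p = 0.0046). Th, which makes dopamine's precursor in those neurons, had 512 to 755 and 350 to 787 reads and did not pass the test. Of 17 dopamine neuron genes 5 fell and 1 rose (3 and 1 without floxed 6; 0 and 1 with depth as a covariate). Of 24 synapse and axon genes 5 fell and 1 rose (the same without floxed 6; none called with depth as a covariate). Of 25 genes of GABA and glutamate transmission 3 fell and 1 rose (the same without floxed 6, and 1 and 0 with depth as a covariate). These shares, 12% and 4%, stand beside 7.61% and 8.48% of all genes tested. Neuropeptide genes rose instead, 6 of 18 with none lower (7 without floxed 6; 3 with depth as a covariate). Penk, the enkephalin precursor gene, had 2627 to 4121 reads in floxed and 4537 to 7052 in cKO libraries, and rose by 0.68 without overlap (adjusted p = 0.00074).

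Levels in the cKO group divided by labelled sex, which was examined after the values were seen. The 4 cKO libraries labelled male had 26570 to 37120 reads of Gfap and 220 to 615 of Isg15, and the 3 labelled female had 11965 to 19728 and 75.9 to 137. In 1 fit of all 14 libraries by genotype and labelled sex, 1509 genes rose (9.62%) and 1428 fell (9.11%) in labelled-male animals, and 14 rose (0.0893%) and 1 fell (0.00638%) in labelled-female animals. Without floxed 6, which is labelled female, the labelled-female counts were 135 and 81. The difference between the labelled sexes was itself called for 0.0% of genes, 0 of 15683 in limma, with 1343 at an unadjusted p under 0.05. The lowest adjusted p values for it were those of C1qb (0.091), with effects of 1.41 in labelled male and 0.41 in labelled female animals, Lag3, an inhibitory receptor gene (0.10; 1.67 and 0.37), and Vegfa, the endothelial growth factor gene (0.11; -0.85 and -0.21). Gfap had effects of 1.66 and 0.70 (adjusted p = 0.21).

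By list, the median effect in labelled-male and labelled-female animals was 1.30 and 0.63 for the effectors, 1.02 and 0.31 for activated microglia, and 0.53 and 0.11 for replication and mitosis. It was 0.92 and 0.86 for border macrophages and -0.40 and -0.45 for myelin. The immediate early genes, which neurons switch on with activity, had medians of -0.57 and 0.39, and 10 of 17 reached an unadjusted p under 0.05 for the difference. Without floxed 6 the labelled-female median of that list was 0.02. Fos, the best known of them, had 1342.0 to 1643.5 reads in labelled-male floxed libraries and 527 to 723 in labelled-male cKO libraries, and in labelled-female animals 164, 756 and 829 in floxed and 501, 636 and 1170 in cKO libraries. The 164 was that of floxed 6 and the 1170 that of cKO 6. Labelled sex and library number cannot be told apart, and the labelled sex is wrong for 3 libraries by their sex-linked transcripts.

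**Figure D4:**
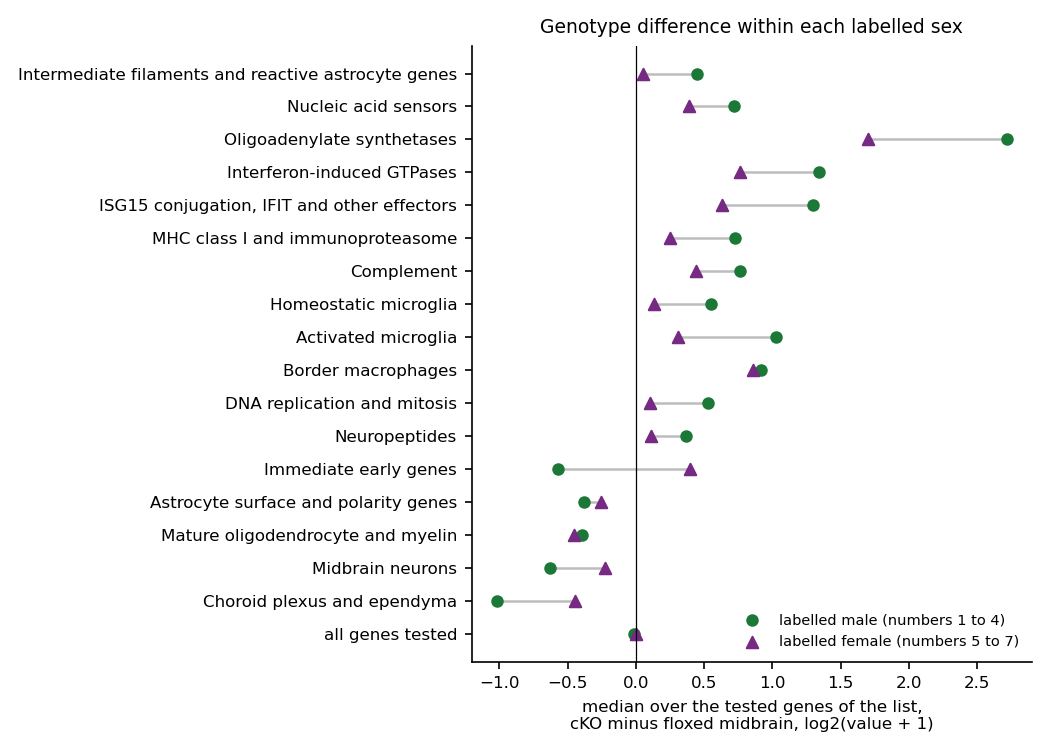
Median effect of genotype over the genes of each list within animals labelled male (circles) and labelled female (triangles), on the log2(value + 1) scale. The triangles lie nearer 0 for interferon, microglial and mitosis lists, lie beside the circles for border macrophages and myelin, and lie on the other side of 0 for immediate early genes (-0.57 and 0.39).

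The same contrast in cortex and cerebellum shows what differs in midbrain. In a fit of 39 libraries and 16659 genes, no gene had a higher genotype effect in midbrain than in cortex (0.0%; 556 genes in either direction at an unadjusted p under 0.05, limma) and 1 had a lower effect (0.006%). That gene, Ppm1j, a phosphatase gene, differed by -2.36, with effects of 2.19 in cortex and -0.16 in midbrain. Without the floxed libraries numbered 6 in all regions the counts were 2 and 4. A difference that was not called does not show that the effects were equal. In midbrain itself, 1 fit of all 6 groups called 501 and 407 genes, against 1330 and 1194 in midbrain alone. Median effects in cortex and midbrain were 1.61 and 1.01 for the effectors and 0.80 and 0.28 for filament and reactive genes. Some lists went the other way, border macrophages (0.60 and 0.89) among them. These medians were not tested against each other.

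Against cerebellum 1997 genes had a higher effect in midbrain (12.0%) and 1735 a lower one (10.4%), and 2321 and 2254 without the floxed libraries numbered 6. With equal library totals the split turned, to 1458 and 2187. Higher and lower refer to the signed effect, so a smaller fall in midbrain counts as higher. Thbs4 fell by 2.81 in midbrain and was 1.36 higher in cKO cerebellum, a difference of -4.17 (SE 0.67, adjusted p = 3.9e-05). Agt was 0.89 lower and 0.75 higher (adjusted p for the difference 0.00073). Serpina3n had effects of 0.58 in midbrain and 5.26 in cerebellum (difference -4.68, adjusted p = 7.3e-05). Hapln1 and Chrdl1 went the other way, with effects of 0.83 in midbrain for both and -1.07 and -0.99 in cerebellum (adjusted p = 4.0e-06 and 1.2e-05). The neuropeptide gene Npy had effects of 0.49 and -4.30 (difference 4.79, adjusted p = 8.6e-11). Yy1 itself fell by 0.24 in midbrain and had an effect of -0.86 in cerebellum (difference 0.63, adjusted p = 0.0024). Without the floxed libraries numbered 6 the differences were -4.86 for Thbs4, -1.82 for Agt, -5.43 for Serpina3n, 1.99 for Hapln1, 2.0 for Chrdl1, 5.07 for Npy and 0.73 for Yy1, and each was called.

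Inflammatory genes with a lower effect in midbrain are counted here against the 10.4% of all genes, and the lists were not tested against each other. Of the 22 complement genes 10 had a lower effect in midbrain than in cerebellum, of the 26 activated microglia genes 14, of the 20 homeostatic microglia genes 14 (and 1 a higher one) and of the 9 class II genes 7. Of the 20 class I genes 5 had a lower effect, and of the 12 chemokine genes 4 had a lower and 2 a higher one. C4b, for example, had effects of 1.14 and 3.24 (adjusted p = 0.0024; difference -2.49 without the floxed libraries numbered 6). Of the 45 effectors 4 had a lower effect, of the 18 GTPases 3 and of the 8 oligoadenylate synthetases 1, and none a higher one, shares nearer that of all genes. These list counts include the floxed libraries numbered 6. Isg15 had an effect of 2.17 in both regions (difference -0.006, SE 0.55) and Usp18 effects of 2.62 and 2.76 (difference -0.13, SE 0.54). Without the floxed libraries numbered 6 the effects were 2.32 and 2.54 for Isg15 (difference -0.24, SE 0.47) and 2.79 and 3.21 for Usp18 (difference -0.42, SE 0.36), and neither difference was called. With floxed 6 left out of cerebellum only, effects there exceeded those in midbrain for Irf7 (3.51 against 2.47), Oas1a (3.64 against 2.86) and Bst2 (3.02 against 2.39). For Gbp3 it was the other way (2.67 against 2.75). Differences in this form were not tested. Of the 24 myelin genes 12 had a lower effect in midbrain, where the median was -0.43 against 0.09 in cerebellum. The homeostatic microglia list had a median of 0.35 in midbrain and 1.30 in cerebellum. Libraries of 1 genotype share their numbers across regions and the fit treated them as independent. With genotype and number as a random block the counts were 2584 and 2312.

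**Figure D5:**
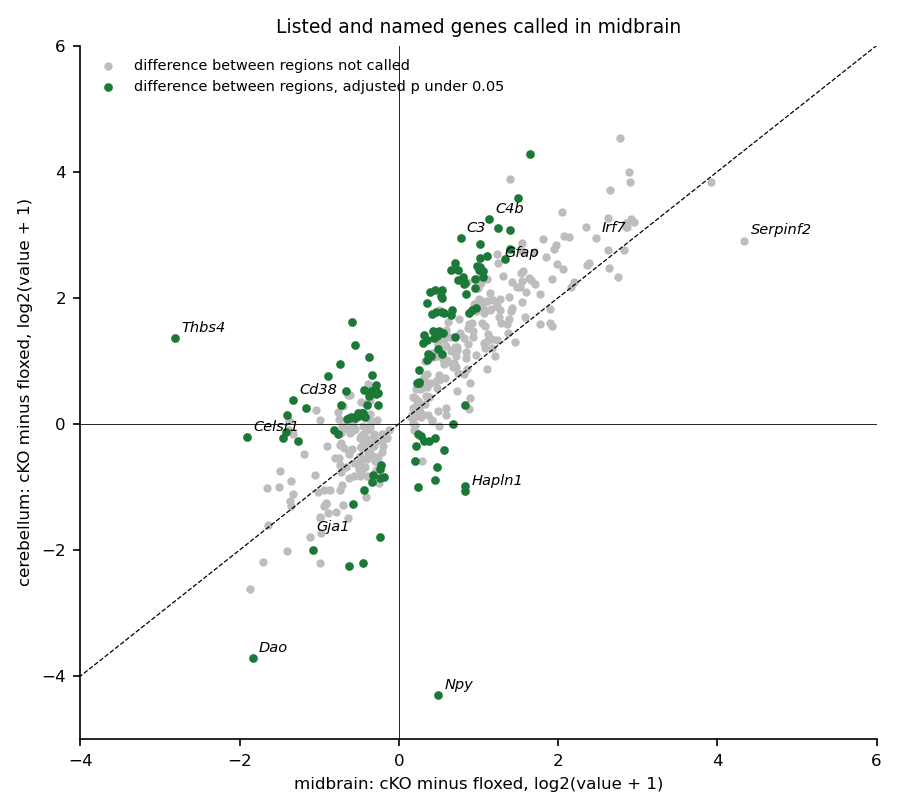
Effect of genotype in midbrain (horizontal axis) and cerebellum (vertical axis), log2(value + 1) scale, for the 433 listed and named genes called in midbrain, with the dashed line marking equal effects. For 125 genes (green) the difference between the regions was called. Thbs4 lies in the quadrant lower in midbrain and higher in cerebellum, and Npy and Hapln1 in the opposite one.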

How the data were processed

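Libraries of polyadenylated RNA from whole dissected midbrain were sequenced in read pairs, per the labels' protocols. Their NEBNext Ultra kit keeps no strand, so sense and antisense reads are not separated. STAR, Salmon and DESeq2, with build mm10, appear in the submitters' processing notes. The authors deposited 1 table whose values are a normalised read signal and not counts: library totals were 25.7 M to 26.9 M in midbrain, while the spacing of low values, taken as the worth of 1 read, differed from 0.544 to 1.72. That spacing gave the estimated reads per library. Normalisation evens out totals (its method: not given in the sources used here), but a shallower library keeps a larger error for low genes. Of 24972 entries, 26 with a date for a name were set aside (up to 0.351% of the signal of 1 library), and 4323 of the remaining 24946 were 0 in all 14 libraries. No pair of libraries was identical.

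Genes reaching 10 normalised reads in 7 libraries were fitted on log2(value + 1) in R 4.3.3 with limma 3.58.1 (trend and robust variance, labelled sex as covariate, Benjamini-Hochberg adjustment over all genes, threshold 0.05). Differences are on that scale, which understates low genes. Of 15683 genes none was tested on a list alone. The labels call the libraries biological replicates. Region contrasts came from a fit of 39 libraries, for genes reaching 10 in 5 of them. Depth was compared with an exact permutation test. The fixed design assumed counts; since the values were not counts, limma took the place of the count test. The main midbrain fit was run on simulated data with independent genes. The region fit and the fit by labelled sex were not simulated. Same-numbered floxed and cKO libraries did not deviate together, so the main fit has no block. Tables were made with pandas 2.3.3, numpy 2.4.6 and scipy 1.17.1 in Python 3.11.15, and plots with matplotlib 3.10.9.

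Any list member may be named. Beyond the lists, the rule names the 20 largest rises and 20 largest falls among called genes of mean 50 or more, the 10 lowest p values, and up to 6 genes for each region contrast and direction. Lag3, Vegfa and the promoters shown were chosen after their values were seen. The comparison and the lists were chosen with earlier results of these data known. The contrast by labelled sex and the fits without the floxed libraries numbered 6 in all regions were added after seeing the data. Alternatives are given below. The 2 libraries whose title code and tissue label differ entered no comparison. Relations across cKO libraries are not given, because the cKO libraries labelled male and those labelled female separated and neither set reaches 6.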

Additional observations from a re-analysis of the deposited data

Results flagged for a closer look

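In each group of 7, single libraries lay apart from the other 6 for 32 of 242 gene and group combinations, where the rule used flags about 1 in 20 independent groups by chance. Genes measured in the same libraries are not independent. In floxed 6 these were the high values of Serpinf2 (22.4 normalised reads), Ncan (9051), Ddx60 (54.5), Gbp3 (290.2), Bst2 (161), Eda2r (42.3) and Serpinf1 (668) and the low value of Gstm1 (2710). Floxed 1 stood apart for Slc1a2 (59001), Slc6a11 (15573), P2ry12 (647), Slc4a5 (239) and the precursor marker Pdgfra (2017), all high, and Slc17a7, the vesicular glutamate transporter gene of cortical neurons (20837, low). Floxed 2 was high for Cldn5 (1827), floxed 3 for Osmr (124), floxed 4 for Cd74 (366) and floxed 5 for estimated reads (48.6 M). In the cKO group, cKO 4, the shallowest library, was low for Slc6a11 (3501), Pygm (608), Megf10 (329), Ednrb (577) and Heph (41.0) and high for Flt1 (1404) and Cldn5 (1467). High values were also those of cKO 1 for Tph2 (629), cKO 2 for Timp1 (149) and Cybb (197), cKO 3 for Fzd10 (431), cKO 5 for Ttr (20070), and cKO 6 for Fos (1170), Btg2 (867) and Npas4 (805). The part of sex, depth or the cut of the tissue in these values was not tested.

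The effect of genotype differed between midbrain and another region, by the contrast itself, for the named genes that follow, given as midbrain minus the other region on the log2 scale. Against cortex this was Ppm1j (-2.36). Higher and lower refer to the signed effect. A smaller fall in midbrain thus counts as higher, as for Dao (-1.84 in midbrain, -3.71 in cerebellum). A larger fall counts as lower, as for Celsr1 (-1.91 and -0.21). Against cerebellum, astrocyte and matrix genes were Slc1a2 (0.62), Slc1a3 (1.12), Dao (1.88), Kcnj10 (0.67), Lcat (0.53), Ednrb (0.93), Hapln1 (1.90) and Chrdl1 (1.82), with a higher effect in midbrain, and Thbs4 (-4.17), Agt (-1.64), Celsr1 (-1.70), Grin2c (-1.54), Cd38 (-1.70) and Serpina3n (-4.68), with a lower one. Immune genes all had the lower effect in midbrain: B2m (-0.87), C1qb (-1.53), C4b (-2.11), C3 (-2.17), Cd68 (-1.56), Lyz2 (-1.38), Trem2 (-1.70), P2ry12 (-0.88), Stab1 (-0.86), Fcrls (-1.43), Cd74 (-2.58), Apoe (-0.80), Tmem119 (-1.08), Il33 (-1.19) and Lag3 (-1.54). Other genes were Yy1 (0.63), Penk (0.68), Npy (4.79), Tbr1 (0.72), Rarb (0.98), Th (-2.78), Myrf (-0.64), Hydin (-1.23) and Tph2 (-1.42). Outside the lists, the largest differences below 0 were those of Car6 (-6.05), Hpse (-5.42), P4ha3 (-3.97) and Psrc1 (-2.95). Those above 0 were Syt10 (4.09), Lgr6 (3.57), Ctxn3 (3.24), Pcdha4 (3.20) and Six3 (3.17). In the fit of midbrain alone Car6 was not tested and none of the others was called. Effects in midbrain and cerebellum were, for example, 0.27 and 5.69 for Hpse and 0.05 and -4.04 for Syt10.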

How the results depend on the processing

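Of 105 named genes called in midbrain none changed sign under any alternative, and 99 to 103 stayed called when 1 library was left out. The 8 genes that lost a call so were Slc6a4 (without any of 8 libraries, highest adjusted p = 0.0826), Ttr (9, 0.0799), Rad21 (8, 0.0872), Hmox1 (7, 0.0718), Eda2r (6, 0.0588), Slc17a7 (4, 0.0626), Opalin (3, 0.0651) and Npy (without floxed 1, 0.0530). Depth as a covariate kept 71 of the 105, with 430 genes higher and 291 lower over all genes, and 1 fit of all 6 groups kept 77, with 501 and 407. With libraries labelled male only there were 937 and 779. The causes of these drops were not tested. Leaving out 1 library gave 989 to 1513 higher and 866 to 1398 lower genes, both ends above being without floxed 6 and the lowest without floxed 4 and floxed 1. Yy1 lost its call with depth as a covariate (-0.2429, adjusted p = 0.0948), labelled male only (-0.2661, 0.0726), without libraries that carry Xist (-0.2155, 0.0765) and with 6 groups in 1 fit (-0.2369, 0.199), and ranged from -0.266 to -0.198 with 1 library left out. Replicate numbers were checked for pairing: deviations of same-numbered libraries correlated at -0.18 to 0.11, and no library correlated best with its own number. Same-numbered libraries also share the labelled sex, and these correlations cannot show whether they had any handling in common. With the number as a block 996 genes were higher and 945 lower, and 103 of the 105 named genes stayed called, all but Hmox1 and Rad21. Differences that did not pass the test changed sign for Slc1a3 with depth (0.0402) or library weights (0.0172), Apoe with equal totals (0.0103), quantiles (0.162, where it was called, adjusted p = 0.0119) or weights (0.00602), Pdgfra with depth (0.0433), weights (0.0591) or labelled male only (0.00457) and Ppm1j labelled male only (0.0424). With 1 library left out Aldh1l1 ranged from -0.0494 to 0.0406, Slc1a3 from -0.0766 to 0.00734, Apoe from -0.0336 to 0.0213 and Pdgfra from -0.0653 to 0.0564. Against cortex the genes with a higher effect in midbrain numbered 2 without the floxed libraries numbered 6 in all regions (0 to 1 with 1 library left out). Those with a lower effect numbered 2 with a random block and 4 without the floxed libraries numbered 6 (1 to 3 with 1 library left out). Against cerebellum, leaving out 1 library gave 1707 to 2450 and 1454 to 2345. The labelled-sex difference gave 0 to 1 genes each way. The depth difference ranged from -0.487 to -0.291 (exact permutation p of 0.021 to 0.11). The pseudocount, filter, quantile, weight and sex-covariate alternatives moved no count of genes by over 1.5 times. Depth limits low genes, and below 10 reads none was tested.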

Other observations

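Further gene groups changed in midbrain. Among 24 serpin and matrix enzyme genes 6 rose and 7 fell (7 and 7 without floxed 6; 2 and 7 with depth as a covariate). The metalloproteinase inhibitor gene Timp4, which astrocytes express, had 1011 to 1459 normalised reads in floxed and 606 to 855 in cKO libraries. It fell by 0.74 without overlap (adjusted p = 0.00012, limma), while Timp1 rose. Among 19 endothelin, thyroid and retinoid genes 5 rose and 4 fell (the same without floxed 6; 3 and 3 with depth as a covariate). The retinoic acid receptor gene Rarb had 193 to 312 reads in floxed and 315 to 431 in cKO libraries and rose by 0.57 without overlap (adjusted p = 0.0029). Stra6, the retinol-binding protein receptor gene, rose by 0.85 (adjusted p = 0.00039). Among 15 metallothionein and iron genes 3 rose and 2 fell (the same without floxed 6; 1 and 0 with depth as a covariate), and the ferroxidase gene Heph fell by 1.32 without overlap (adjusted p = 0.0045). The alarmin gene Il33, which oligodendrocytes and astrocytes express, fell by 0.66 (adjusted p = 0.010). Prox1, a transcription factor gene of hippocampal granule and some thalamic neurons, had 913 to 1508 reads in floxed and 595 to 737 in cKO libraries and fell by 0.75 without overlap (adjusted p = 0.00014).

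No member of 26 imprinted genes or of 30 cytosolic ribosomal protein genes was called in limma, with medians of -0.07 and 0.05. Of 30 genes of the complexes that YY1 works in, Yy1 and the cohesin subunit gene Rad21 fell, and the median was -0.03. That share, 6.67%, lay near the 7.61% of all genes tested. Without floxed 6 Rad21 was not called (adjusted p = 0.055) and 2 genes rose and 1 fell, and with depth as a covariate none was called.

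A floxed and a cKO library, both numbered 7, carry title codes and tissue labels that name different regions and were assigned to no group. Gata3, a midbrain marker, was at 0 in both. Slc6a4 was at 5.33 and 1.81 normalised reads, and the forebrain marker Tbr1 at 4282 and 3356, in the floxed and the cKO library. Gfap was at 2735 and 18225, Yy1 at 1191 and 1063, Serpinf2 at 2.7 and 79.4, Thbs4 at 252 and 18.6, and Irf7 at 91.8 and 504.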
